A study of Oryza sativa with 14 samples.

Results

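WRKY76 (LOC4347069) and wrky38 (LOC4328512) are WRKY transcription factor genes of rice, and their transcript levels were followed over 14 arrays of whole seedlings. They were found by symbol or synonym in a reference gene table, and 2 of the 17905 genes with a probe set on the array are described here. The reference table gives WRKY71 as another name of wrky38. WRKY76 had 1 probe set, Os.25606.1.S1_at, and wrky38 had 2, of which Os.12032.1.S1_at had the higher mean and is the one meant below unless the other is named. The reference table gives a WRKY name to 6 genes with a probe set. Any WRKY gene listed there by locus identifier alone was not counted. WRKY76 and wrky38 were chosen by their log2 difference between the unstable transgenic line and the Nipponbare control. Of the 6 named genes they were the ones called higher in that comparison. Their values from its arrays are therefore given as a description, with no test.

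The study, in Oryza sativa ssp. japonica, compared the transcript changes that accompany mutagenesis with those that accompany a transgene. Each of 7 groups had 2 RNA pools of 6 whole seedlings, 12 days old. Seed of all groups was treated with the fungicide Benlate, disinfected and kept dark for 2 days, and seedlings then had 12 h of light daily for 10 days at 28 °C. A T3 line of cv. Bengal, the stable transgenic line, expresses the single-chain antibody ScFvT84.66 against carcinoembryonic antigen, and its control was unmodified Bengal. The stable mutant (cv. Estrela A) is a semidwarf line from gamma irradiation, about 45 cm shorter and selfed for over 10 generations, and its control was unmodified Estrela A. The unstable transgenic line (cv. Nipponbare, T1 generation, Agrobacterium-transformed) carries BCBF1 under the Arabidopsis RD29A promoter and an hpt gene. The unstable mutant (cv. Nipponbare, M1 generation) received 100 Gy of gamma rays, and both unstable lines were compared with the same unmodified Nipponbare control. Each modified group is a single line, and both transgenic lines germinated with 30 mg/L hygromycin B while the other groups did not, so line, transgene and antibiotic cannot be told apart.

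WRKY proteins are plant transcription factors that bind W-box elements in promoters, and many are themselves induced within hours by pathogens, wounding or cold. In rice, WRKY76, WRKY71 and WRKY62 belong to the small group IIa, with WRKY28 as a further member. WRKY76 is known as a transcriptional repressor whose overexpression weakens resistance to blast fungus and raises cold tolerance. WRKY71, here wrky38, is known from aleurone cells, where it represses alpha-amylase genes together with WRKY51, and from defence against bacterial blight. WRKY62, also named XB10, binds the resistance kinase XA21.

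All values are log2 expression as the authors deposited them, differences are on the same log2 scale, and a level is compared only between arrays of the same probe set. Replicate arrays correlated with r of 0.993 to 0.997 over 57194 probe sets, which are not independent replicates. Every group had a mean over 6 shoot markers of 10.66 to 11.25, although 1 of these markers averaged 3.63, and a mean over 5 root markers of 8.84 to 10.75. The root markers were higher in the Nipponbare control (10.49 and 10.75) and the unstable transgenic line (10.70 and 10.72) than in the other 5 groups (8.84 to 9.36). In such pools fewer cells of a type and less RNA per cell cannot be told apart.

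WRKY76 read 10.82 and 9.40 on replicates 1 and 2 of the unstable transgenic line and 8.40 and 7.55 on those of its control, Nipponbare. Both arrays of the line stood above each of the other 12 arrays, of which Nipponbare control replicate 1 was the highest. The group means were 10.11 ± 1.00 and 7.98 ± 0.60 (SD, n = 2), a log2 difference of 2.14 or 4.39-fold. Replicate 1 of the line alone lay 7.19-fold and replicate 2 alone 2.69-fold above the control mean.

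wrky38 read 11.85 and 10.17 in the unstable transgenic line and 8.61 and 8.69 in the Nipponbare control. Here too both arrays of the line exceeded each of the other 12, the highest of which was replicate 1 of the unstable mutant at 9.09. The means were 11.01 ± 1.19 and 8.65 ± 0.06 (SD, n = 2), a log2 difference of 2.36 or 5.13-fold. Taken singly, replicate 1 was 9.19-fold and replicate 2 was 2.87-fold above the control mean. For scale, 13.1% of all genes were called in this comparison by limma at an adjusted p under 0.05 (9.21% higher, 3.92% lower), and in 34% of genes both arrays of the line lay above both control arrays.

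**Figure D1:**
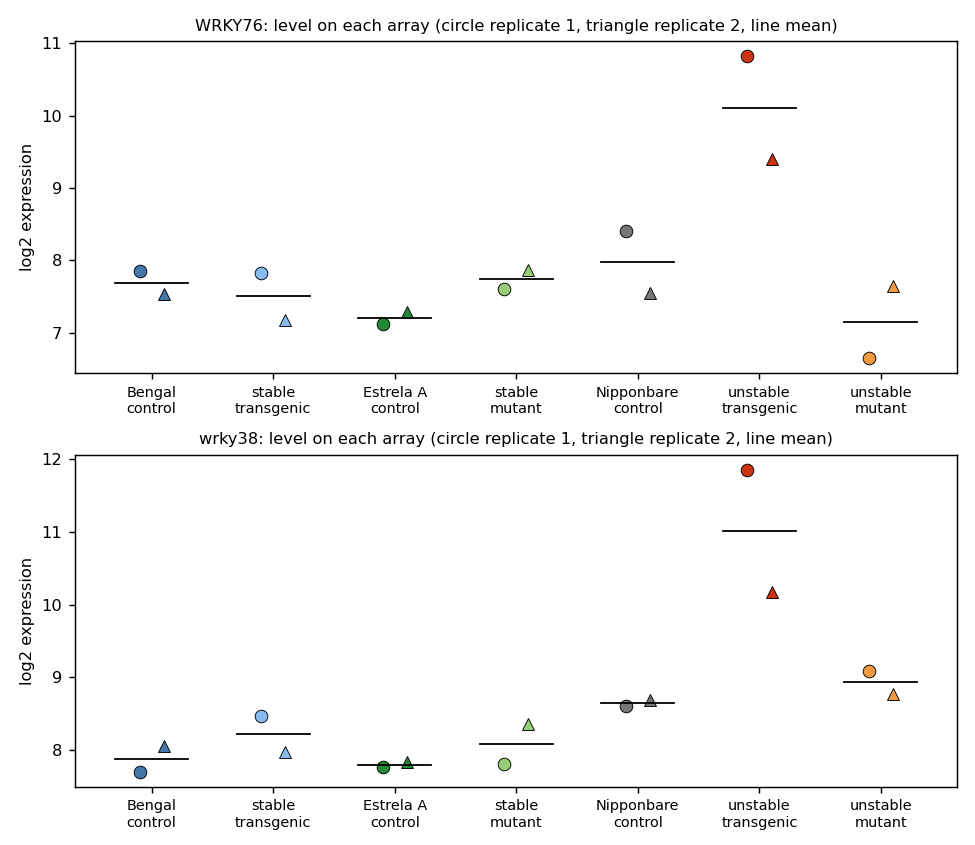
Log2 expression of WRKY76 (upper panel) and wrky38 (lower panel) on each of the 14 arrays by group, with circles for replicate 1, triangles for replicate 2 and lines for group means. Both arrays of the unstable transgenic line (9.40 and 10.82 for WRKY76, 10.17 and 11.85 for wrky38) lie above all the other arrays.

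The distance between the arrays of the unstable transgenic line was large for both genes. Replicate 1 exceeded replicate 2 by 1.42 for WRKY76 and by 1.68 for wrky38, and 0.536% and 0.307% of genes had a larger absolute distance between these arrays. Over all probe sets the replicate difference had an SD of 0.265 in this line, against 0.196 to 0.289 in all 7 groups, and 0.843% of probe sets differed by over 1, the highest share of the 7 groups (0.147% to 0.64% in the other 6). In this line 2 of 6 shoot markers fell, 2 of 5 root markers rose and 1 fell, and 0 of 7 grain markers were called. Of all genes 9.21% were called higher and 3.92% lower. The median log2 difference was -0.05 for shoot, -0.41 for root and 0.07 for grain markers, against 0.03 over all genes. The part of these markers in the levels of WRKY76 and wrky38 was not tested.

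The dimmer probe set of wrky38, OsAffx.24166.1.S1_at, gave the same order of these arrays. It read 8.72 and 7.28 in the unstable transgenic line and 6.19 and 6.30 in the Nipponbare control, the means differing by 1.76 on the log2 scale or 3.38-fold. In the unstable mutant the dimmer probe set gave the larger difference. The brighter one read 9.09 and 8.77 there, 0.28 above the Nipponbare control mean, whereas the dimmer one read 7.12 and 7.03, 0.83 or 1.78-fold above it. On both probe sets the arrays of the unstable mutant lay above those of the control without overlap, as 36% of all genes did.

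**Figure D2:**
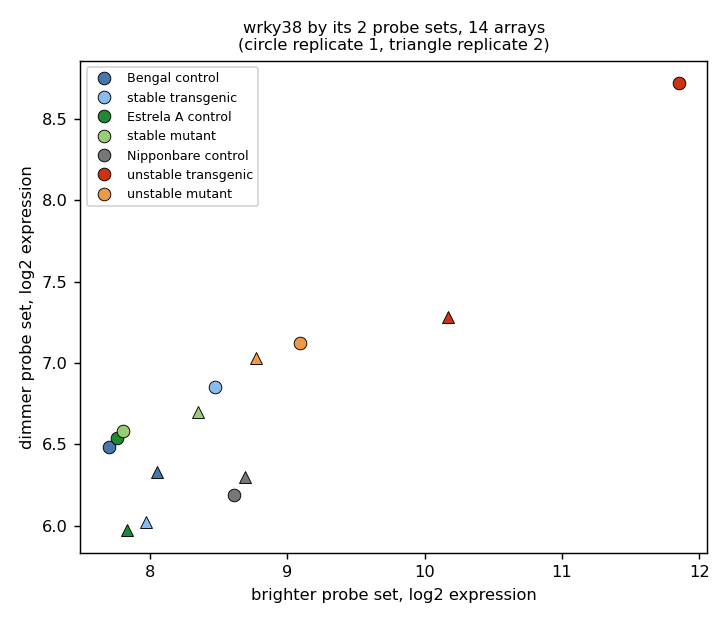
Log2 expression of wrky38 by its brighter (horizontal axis) and dimmer (vertical axis) probe set, 1 point per array, coloured by group, with circles for replicate 1 and triangles for replicate 2. The unstable transgenic arrays are highest on both axes, and the unstable mutant arrays (7.03 and 7.12 on the dimmer probe set) are next.

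WRKY76 in the unstable mutant did not follow wrky38. It read 6.65 and 7.64, a mean of 7.15 ± 0.70 (SD, n = 2) and the lowest of the 7 groups, 0.83 below the Nipponbare control mean. The groups overlapped, since replicate 2 of the mutant (7.64) was above replicate 2 of the control (7.55). The root markers differed between the same groups, with 4 of 5 called lower in the unstable mutant where 18.9% of all genes were, and their part in these values was not tested. The comparison shares its control arrays with the one by which both genes were chosen.

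In the stable lines neither gene was called by limma, where 0.212% of all genes were called in the transgenic and 0.19% in the mutant one. The limma SE of a gene, here and between cultivars, draws on the spread within all 7 groups. These include the arrays by which the genes were chosen. The unstable transgenic pair had the largest SD of the 7 groups, 1.00 for WRKY76 and 1.19 for wrky38, so the intervals partly reflect that pair. WRKY76 read 7.83 and 7.18 in the stable transgenic line and 7.85 and 7.53 in Bengal, so the groups overlapped. The log2 difference was -0.19 (SE 0.44, 95% interval -1.15 to 0.78, limma adjusted p = 0.982). wrky38 read 8.47 and 7.97 in that line and 7.70 and 8.05 in Bengal, again with overlap. The log2 difference was 0.34 (SE 0.40, interval -0.54 to 1.23, limma adjusted p = 0.943).

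In the stable mutant WRKY76 read 7.60 and 7.87, above both Estrela A arrays (7.12 and 7.29) without overlap. The log2 difference of 0.53 (SE 0.44, interval -0.43 to 1.49) was not called (limma adjusted p = 0.896), and 44.9% of all genes had arrays that did not overlap in this comparison. wrky38 read 7.80 and 8.35 there and 7.76 and 7.83 in Estrela A, and these groups overlapped. Its log2 difference was 0.28 (SE 0.40, interval -0.60 to 1.16, limma adjusted p = 0.954). The responses of the stable lines were not called different from each other for WRKY76 (difference -0.71, SE 0.62, limma adjusted p = 0.781) or wrky38 (0.07, SE 0.57, limma adjusted p = 0.986).

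Between cultivars, Estrela A and Bengal were compared by test, and neither gene was called, where 14.5% of all genes were. WRKY76 was 0.48 lower in Estrela A than in Bengal (SE 0.44, limma adjusted p = 0.638) and wrky38 0.08 lower (SE 0.40, limma adjusted p = 0.954). For WRKY76 the Nipponbare control had the highest mean of the 3 controls, and its arrays overlapped those of Bengal. For wrky38 the order of the cultivars turned with the probe set. On the brighter one the Nipponbare control arrays (8.61 and 8.69) lay above all 8 arrays of the Bengal and Estrela A cultivars, which ran from 7.70 to 8.47. On the dimmer one the Nipponbare control had the lowest mean of the 7 groups (6.25, against 6.41 in Bengal and 6.26 in Estrela A), and its arrays overlapped those of Estrela A.

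Ordered by group mean, WRKY76 ran from the unstable transgenic line through the Nipponbare control (7.98), stable mutant (7.74), Bengal (7.69), stable transgenic line (7.51) and Estrela A (7.21) to the unstable mutant (7.15). From the Nipponbare control downward each group overlapped the next. wrky38, on its brighter probe set, ran from the unstable transgenic line (11.01) through the unstable mutant (8.93), Nipponbare control (8.65), stable transgenic line (8.22), stable mutant (8.08) and Bengal (7.88) to Estrela A (7.80). Its 3 highest groups were each separate from the next, and the remaining 4 overlapped.

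The Nipponbare control arrays differed for WRKY76 and not for wrky38. WRKY76 was 0.85 higher on replicate 1 of that control than on replicate 2, a distance exceeded by 1.18% of genes, while wrky38 was 0.08 lower, a distance exceeded by 58.1% of genes. The adjacent gene WRKY62, with no other gene between it and WRKY76 in the reference gene order, differed by 1.49 (7.59 against 6.10). WRKY24 differed by 0.86 (7.77 against 6.91).

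The genes of diterpenoid phytoalexin synthesis, antimicrobial compounds that rice makes on infection, were all higher on the same control array. Of 13 such genes, 13 read higher on replicate 1 of the Nipponbare control, by a median of 1.23, where the median over all genes was -0.03 and 40.9% of genes were higher on that array. CPS2, a diterpene cyclase gene, read 10.43 against 7.08. Of 11 chitinase and pathogenesis-related genes, 7 read higher on that array, at a median of only 0.11. PBZ1, a pathogenesis-related gene among them, read 13.14 against 11.24. Other groups also split. The phytoalexin genes higher on replicate 1 numbered 11 of 13 in Estrela A (median 0.15), 2 in Bengal (-0.72) and 1 in the stable mutant (-0.59). In the stable transgenic line, unstable transgenic line and unstable mutant they numbered 7, 6 and 4. PBZ1 read 11.21 against 9.05 in Estrela A and 9.62 against 11.85 in the stable mutant. The Nipponbare control arrays enter each difference given for the unstable lines, and the part of their split in those differences was not tested.

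Outside the unstable transgenic line no relation between the levels of WRKY76 and wrky38 was found. Over the remaining 12 arrays Pearson's r was -0.03 (permutation p = 0.927, adjusted 0.927) and Spearman's rho 0.04 (permutation p = 0.903, adjusted 0.927), as 2 relations of 1 family. Leaving out the 2 arrays farthest from the median of WRKY76 gave r of 0.38 over 10 arrays. The 12 arrays are pairs from 6 groups and not fully independent, while the permutation shuffled them freely. They include the Nipponbare control arrays, which also entered the choice of the genes. The p-values therefore do not show that the levels are unrelated. The probe sets of wrky38 had r of 0.55 over the same 12 arrays.

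In the unstable transgenic line limma called none of the other 4 genes with a WRKY name, where 13.1% of all genes were called. Of these genes 0 had an unadjusted p under 0.05. That none was called higher followed from the way the members were chosen. WRKY62 read 7.83 and 7.45 in that line against 7.59 and 6.10 in the Nipponbare control, with overlap. Its log2 difference was 0.80 (SE 0.40, limma adjusted p = 0.256). Without Nipponbare control replicate 1 it was 1.54 and called (limma adjusted p = 0.0276), and without replicate 2 of that control it was 0.05.

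WRKY24, known in aleurone cells as a repressor of gibberellin and abscisic acid signalling, read 8.26 and 7.16 in the line against 7.77 and 6.91, a difference of 0.37 (SE 0.42, limma adjusted p = 0.643). WRKY51 differed by 0.24 (limma adjusted p = 0.496) and WRKY9 by -0.12 (limma adjusted p = 0.522). The smaller difference of the chosen genes was 2.14 for WRKY76, and the largest of the other 4 genes was 0.80 for WRKY62. WRKY76 and wrky38 were chosen by this difference, so their lead over the other 4 followed from the choice and is no result.

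In the unstable mutant, where 38% of all genes were called (19.1% higher, 18.9% lower), WRKY51 rose. It read 8.90 and 8.89 against 7.83 and 7.87 in the Nipponbare control, with no overlap. The log2 difference of 1.04 or 2.06-fold was called (SE 0.20, limma adjusted p = 0.00241), and it ran from 1.02 to 1.06 when each array was left out in turn. WRKY24 was 0.83 lower (SE 0.42, limma adjusted p = 0.185), and WRKY62 and WRKY9 were 0.29 and 0.24 higher (limma adjusted p = 0.671 and 0.0975). None of these 4 genes was called in the stable lines, with differences of -0.22 to 0.58 for the transgenic and 0.03 to 0.54 for the mutant one, and 0 had an unadjusted p under 0.05 there.

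**Figure D3:**
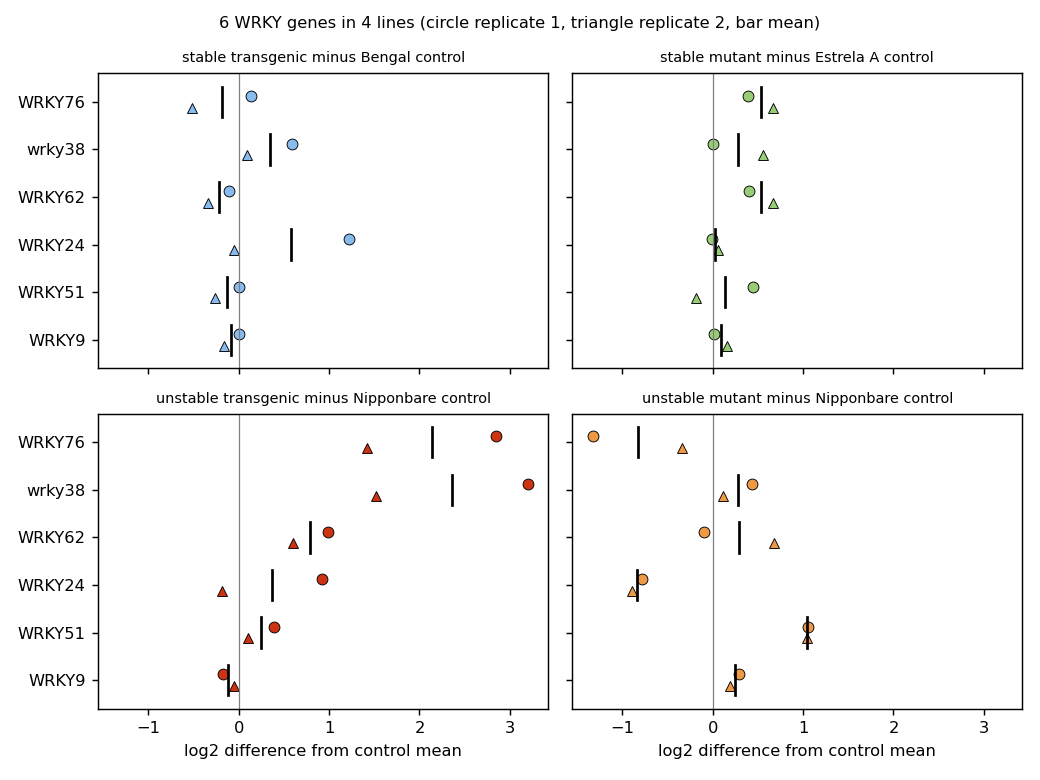
Log2 difference of each array from the mean of its control for the 6 WRKY genes in the 4 modified lines, with circles for replicate 1, triangles for replicate 2 and bars for the line mean. WRKY76 and wrky38 lie at 1.42 or more on both arrays of the unstable transgenic line, and WRKY51 lies at 1.05 and 1.04 in the unstable mutant.

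Genes of defence and hormone pathways in which WRKY factors act were then counted in the unstable transgenic line, beside the 9.21% of all genes called higher. The lists were chosen with earlier results of these data known, so the counts are a description. Of 38 jasmonate genes on the array, 16 rose, 0 fell and 22 did not pass, at a median log2 difference of 0.59 against 0.03 over all genes. JAZ13 (LOC4348531), a repressor of jasmonate signalling, rose from 5.19 ± 0.38 to 10.56 ± 1.71, and 15 of the 16 had their higher reading on replicate 1. Of all 38 genes 7 to 22 read higher on replicate 1 in the controls and mutants and 29 in the stable transgenic line (median 0.21). In the unstable transgenic line 25 did (median 0.21). Of 5 DREB1 genes, cold and drought regulators also named CBF, 4 rose, each higher on replicate 1. DREB1G (LOC4330306) rose from 4.47 ± 0.47 to 9.50 ± 1.39 (limma adjusted p = 0.000145), with a fold of 16.6 to 64.4 when each array was left out in turn. Its control level lay below the median probe set mean of 5.88, and signal over background was not tested. DREB1B (LOC4347618) rose 11-fold (limma adjusted p = 0.00866), or 4.29-fold to 28.2-fold with an array left out.

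Of 11 chitinase and pathogenesis-related genes 5 rose and 0 fell, but 1 of these 5 had its higher reading on replicate 1. Cht4 (LOC4336263), a chitinase gene, read 11.29 ± 0.08 against 9.59 ± 0.12, whereas PBZ1 read 12.23 ± 0.13 against 12.19 ± 1.34. Of 31 salicylate and MAP kinase genes 6 rose, 4 fell and 21 did not pass. MAPK2 (LOC4332475), also listed as MAPK5, a kinase gene of the defence response, rose 2.76-fold (limma adjusted p = 0.0192), MAPK6 (LOC4339633) 2.81-fold (0.00141) and NPR3 (LOC4333666) 1.96-fold (0.000983). Other loci named MAPK2 or MAPK6 were not called. Of the 4 that fell, TGAL7 (LOC4346610) changed most, at 1.82-fold lower (limma adjusted p = 0.000774). Of the 13 phytoalexin genes CYP76M7 rose 2.27-fold (limma adjusted p = 0.016) and 12 did not pass, at a median of 0.07. In the unstable mutant, which shares the control arrays, 8 of these 13 fell, at a median of -1.93, where 18.9% of all genes were called lower. In that comparison 4 of 5 root markers also fell, at a median of -1.63, and their part in the count was not tested.

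Single arrays decided many of these calls. Without replicate 1 of the line the counts of genes called higher were 12 for jasmonate, 3 for DREB1, 1 for chitinases and PBZ1, 2 for salicylate and MAP kinases (with 1 lower) and 0 for phytoalexins. Without Nipponbare control replicate 1 they were 16 (with 1 lower), 2, 1, 3 (with 1 lower) and 2. Without replicate 2 of the line they were 17 (with 1 lower), 4, 2, 7 (with 3 lower) and 0. Without replicate 2 of the control they were 15, 4, 3, 4 (with 3 lower) and 0, and 2 phytoalexin genes were then called lower, so that list turned direction. MAPK2 lost its call without replicate 1 of the line (limma adjusted p = 0.0574) or either control array, and CYP76M7 lost it without either array of the line or control replicate 2. When the 4 arrays were fitted alone, 35 probe sets were called against 4425, among them 1 of these genes, a chitinase gene.

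**Figure D4:**
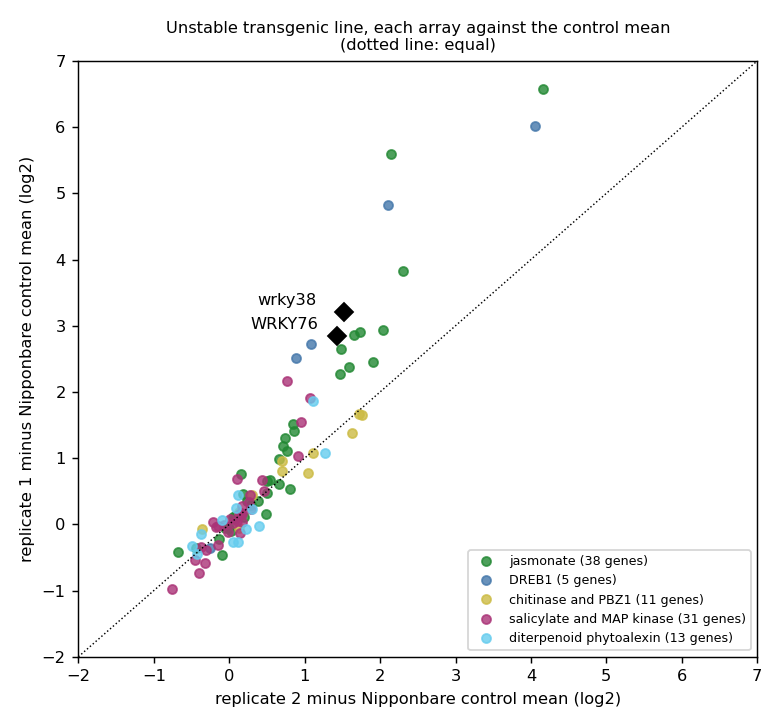
Log2 difference from the Nipponbare control mean on replicate 1 (vertical axis) and replicate 2 (horizontal axis) of the unstable transgenic line, 1 point per gene of 5 lists, with WRKY76 and wrky38 as black diamonds and a dotted line where both are equal. WRKY76 (2.84 on replicate 1, 1.42 on replicate 2) and wrky38 (3.20 and 1.52) lie above the line, as do 15 of 16 called jasmonate genes and 4 of 4 called DREB1 genes, against 1 of 5 called chitinase genes.

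The named genes whose levels were most like those of each factor over the 14 arrays were found by Pearson's r among 2173 genes with a symbol and a mean at or above 5.88. The values describe these arrays, which share lines and controls, and rest largely on the unstable transgenic pair. For WRKY76 they were ASB1 (r = 0.961), an anthranilate synthase gene, CDPK1 (0.955), a calcium-dependent kinase gene, CML18 (0.942), of the calmodulin-like family, ERH1 (0.939) and 4CL5 (0.936), a 4-coumarate CoA ligase gene. Without the unstable transgenic arrays these r were 0.569 to 0.725 over 12 arrays.

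For wrky38 the closest genes were JAZ12 (r = 0.961), JAZ6 (0.957), BHLH148 (0.956), a basic helix-loop-helix factor gene, SAP11 (0.955), of the stress-associated zinc finger family, and JAZ4 (0.949). These r were 0.632 to 0.787 without the unstable transgenic arrays. The lowest r belonged to C3H37 (-0.925) and HOX1 (-0.914) for WRKY76, and to HSP18.8 (-0.919) and ORR2 (-0.917) for wrky38. Over 14 arrays r exceeded 0.9 for 26 genes with WRKY76 and for 40 with wrky38, and over the 12 arrays for 0 with either.

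**Figure D5:**
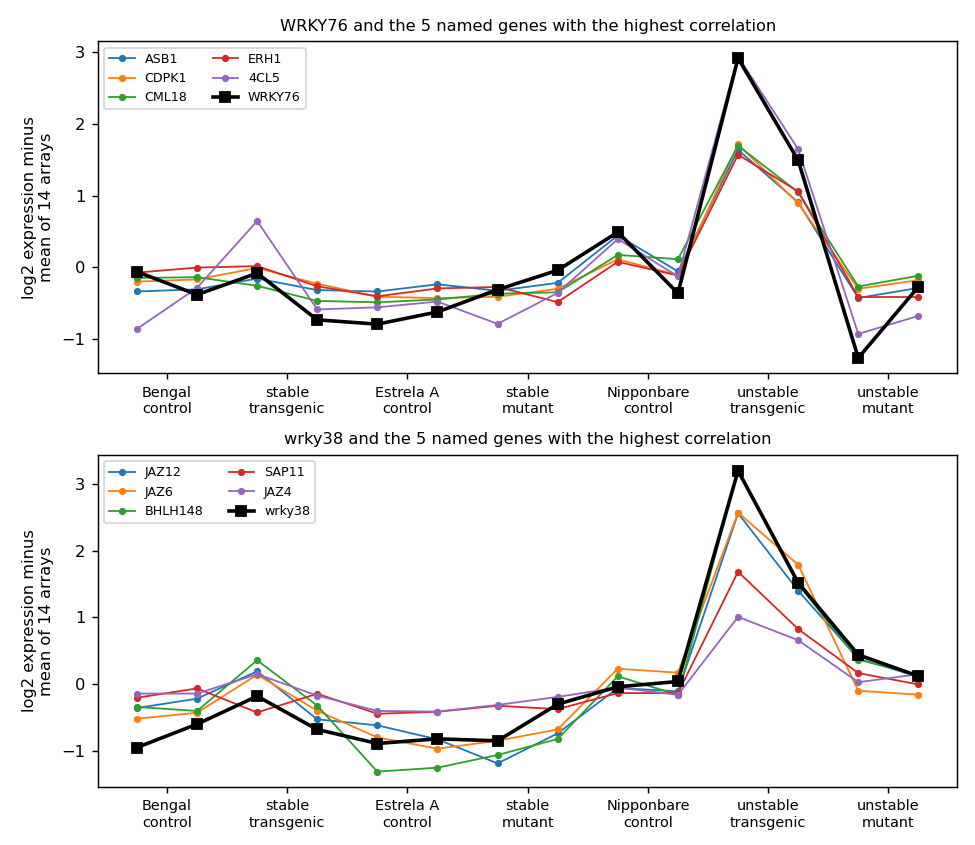
Log2 expression minus the mean of 14 arrays for WRKY76 (upper panel) and wrky38 (lower panel), in black, and the 5 named genes with the highest r to each, with replicates 1 and 2 side by side within a group. The profiles meet in the peak at the unstable transgenic line, with r of 0.936 to 0.961 over 14 arrays.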

How the data were processed

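RNA pools, 14 in all and 2 per group, were hybridised to Affymetrix rice genome arrays. Per the labels, the authors applied Robust Multichip Average (Partek) with background correction, normalization across arrays and median polish, and deposited log2 expression values. Versions are not given here. Of 57381 probe sets, 187 controls were left out, and 57194 were tested as deposited. The array numbered in its title was called replicate 1 and its unnumbered partner replicate 2. Nothing in the labels says that a number pairs arrays, and the deviations of same-numbered arrays correlated with r of -0.21 to 0.12 over the 21 pairs of groups.

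Genes were named through a reference gene table (assembly ASM3414082v1). One gene was found for 22436 probe sets, several for 95 and none for 34663. Each of 17905 genes was represented by its probe set with the highest mean. limma 3.58.1 in R 4.3.3 fitted 1 mean per group over all 14 arrays (7 residual and 4.57 prior degrees of freedom). Two-sided p-values were adjusted by Benjamini-Hochberg over all probe sets and called under 0.05. They reflect variation among pools of 1 line each, and the number of arrays limits the precision. The fit was tested on simulated data.

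The members, lists and naming rule were chosen with earlier results of these data known. Named were the 6 genes with a WRKY name, up to 4 called genes per list and the 5 most and 2 least correlated genes. CPS2 and PBZ1 were picked after their values were seen. The lists hold WRKY group IIa, WRKY defence regulators (of which WRKY24 alone was matched), jasmonate, DREB1, chitinase and pathogenesis-related, salicylate and MAP kinase, and phytoalexin genes, and shoot, root and grain markers. The 7 grain markers averaged 5.66 to 7.70 over the arrays, with 0 called in the unstable transgenic line. Alternatives were cyclic loess, a replicate block, other variance moderation, a fit to the 4 arrays of a comparison, dim probe sets removed, the other probe set of wrky38 and each array left out. Permutation tests drew 100000 resamples. Signal over background was not tested.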

Additional observations from a re-analysis of the deposited data

Results flagged for a closer look

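WRKY76 lay on opposite sides of the Nipponbare control mean in the unstable lines, on both arrays of each. It was 2.14 above that mean in the unstable transgenic line and 0.83 below it in the unstable mutant, a gap of 2.96 (log2) that was not tested. The control arrays lay 0.85 apart, and replicate 2 of the mutant (7.64) was above replicate 2 of the control (7.55). WRKY76 was chosen by the first of these differences. Its difference in the stable mutant (0.53) lay 1.36 above that in the unstable mutant, again with both arrays of each line on opposite sides of the control mean, and this was not tested.

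Effects of 3 other WRKY genes were called different between lines in limma interaction tests. The share of all genes called in these tests was not counted, so the number of WRKY genes is no result about them. In the comparisons with the Nipponbare control 13.1% of all genes were called for the unstable transgenic line and 38% for the unstable mutant. WRKY51 differed less in the unstable transgenic line (0.24) than in the unstable mutant (1.04), by -0.80 (SE 0.20, limma adjusted p = 0.00856), and the call was lost without unstable transgenic replicate 2 (limma adjusted p = 0.0721). Its difference in the stable transgenic line (-0.12) lay -1.17 from that in the unstable mutant (SE 0.28, limma adjusted p = 0.0146), a call lost without Bengal control replicate 1 (0.0511) or stable transgenic replicate 2 (0.0576). WRKY9 was -0.36 in the unstable transgenic line relative to the unstable mutant (SE 0.10, limma adjusted p = 0.0147), and the call was lost without replicate 1 of either line (0.106 and 0.0962). WRKY24 was 1.21 higher in the unstable transgenic line than in the unstable mutant relative to their shared control (SE 0.42, limma adjusted p = 0.0471). That call was lost without unstable transgenic replicate 1, where the difference was 0.66 (0.36), and without either array of the unstable mutant (0.129 and 0.164).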

How the results depend on the processing

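Of 83 values of WRKY76 and wrky38 under alternatives, 80 kept their side of the threshold and direction or moved by less than the spread between replicates. For the unstable lines, which had no test, leaving out 1 array could not move a value beyond that spread. The tested differences were far from being called, at limma adjusted p of 0.638 to 0.982 with all arrays. The count of 80 is therefore no measure of robustness. The other probe set of wrky38 gave 0.83 in the unstable mutant, against 0.28. With arrays left out in turn, WRKY76 ran from -0.51 to 0.14 in the stable transgenic line and wrky38 from -0.255 to 0.095 between Estrela A and Bengal, so both turned direction. In the unstable transgenic line WRKY76 ran from 1.42 to 2.84 and wrky38 from 1.52 to 3.20, and in the unstable mutant from -1.32 to -0.34 and from 0.12 to 0.44. The cause was not tested. Other WRKY genes called ran from 0 to 1 for the unstable transgenic line and from 1 to 2 for the unstable mutant (WRKY62 added without Nipponbare control replicate 1), and numbered 2 there without dim probe sets (WRKY9 added), where fewer probe sets were tested.

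Uncalled differences of other WRKY genes also turned direction with an array left out. WRKY24 ran from -0.05 to 1.22 in the stable transgenic line, from -0.17 to 0.23 in the stable mutant (-0.005 without its replicate 2) and from -0.18 to 0.92 in the unstable transgenic line (-0.06 without Nipponbare control replicate 2). WRKY51 ran from -0.26 to 0.01 in the stable transgenic line, from -0.18 to 0.45 in the stable mutant (-0.09 without Estrela A control replicate 2) and from -0.04 to 0.40 between Estrela A and Bengal. WRKY9 ran from -0.16 to 0.005 in the stable transgenic line and WRKY62 from -0.46 to 1.03 in the unstable mutant (-0.10 without its replicate 2).

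All probe sets called changed over 1.5-fold when a comparison's own 4 arrays were fitted, to 28 from 94 in the stable transgenic line, 35 from 4425 in the unstable transgenic line and 7862 from 13085 in the unstable mutant. The count was 152 with a trended robust prior in the stable transgenic line. With arrays left out it ran from 51 to 65 there, 47 to 62 in the stable mutant (75 with all), 1349 to 5613 in the unstable transgenic line, 8179 to 13209 in the unstable mutant and 3188 to 3544 between Estrela A and Bengal (5433 with all). With the replicate number as a block, the WRKY genes called numbered 0 for the unstable transgenic line and 1 for the unstable mutant, as without it, and 3935 probe sets were called in the former. Same-numbered arrays of the stable transgenic line and Bengal deviated oppositely (r = -0.12), and a block with crossed numbers, added after seeing the data, called 84 probe sets and 0 WRKY genes.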
